A study of Mus musculus with 6 samples.

Results

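A set of 10 genes of the coats and membrane domains through which cells take in particles were followed in 4T1 cells, a mouse mammary carcinoma line. They were chosen by symbol as Cltc, Clta, Cltb, Dnm2 and Picalm of the clathrin route, Cav1, Cav2 and Cavin1 of the caveola route, and Flot1 and Flot2 of the flotillin route. All 10 were present among the 22105 features with a gene identifier, and 9 of them were among the 10863 genes tested. No gene specific to macropinocytosis was among the 10, and such genes are given further on as a related list. Messenger RNA was sequenced from 3 libraries of cells given nanoparticles and from 3 libraries of cells given phosphate-buffered saline (PBS), each for 24 h. The particles, labelled CM-PEG-PLGA@DOX/R848, are named for a PEG-PLGA polymer, for doxorubicin (DOX), a topoisomerase II poison, and for resiquimod (R848), an agonist of the endosomal receptors TLR7 and TLR8, and were dosed at the equivalent of 2 µg/mL of doxorubicin. The sample titles do not say what CM stands for. Both groups were the same cell line, and no empty particle or free drug was analysed here. Separate cultures are not mentioned in the labels, so each p-value reflects the scatter of these libraries alone, and that scatter may be technical.

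Clathrin coats form when heavy chains carrying light chains assemble into a lattice that adaptors tie to the membrane and its cargo, and dynamin then cuts the neck of the bud. Caveolae are small flask-shaped pits in which caveolin oligomers are held by a coat of cavins. Flotillins assemble with each other into separate microdomains on the inner face of the membrane. All of these routes, with macropinocytosis, are known ways by which particles of various sizes enter cells.

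The upstream sequences of 4 genes are shown because each pair of partners stood apart in these data: the light chain Cltb and the heavy chain Cltc moved in opposite directions, and Cav2 was abundant while its neighbour Cav1 was close to 0. Each line gives the 250 bases upstream of the most upstream RefSeq start in GRCm38.p6, on the gene's own strand. Cltb is at chr13:54611374-54611623 on the minus strand, Cltc at chr11:86757568-86757817 on the minus strand, Cav2 at chr6:17280935-17281184 on the plus strand and Cav1 at chr6:17306085-17306334 on the plus strand. Capitals mark matches, on either strand, to any of 6 motifs. These were the GC box with the letters GGGCGG, the box spelled CCAAT, the TATA box searched as TATAAA, the E-box searched as CACGTG, the cyclic AMP response element (CRE) searched as TGACGTCA and the AP-1 site searched as TGANTCA.
Cltb: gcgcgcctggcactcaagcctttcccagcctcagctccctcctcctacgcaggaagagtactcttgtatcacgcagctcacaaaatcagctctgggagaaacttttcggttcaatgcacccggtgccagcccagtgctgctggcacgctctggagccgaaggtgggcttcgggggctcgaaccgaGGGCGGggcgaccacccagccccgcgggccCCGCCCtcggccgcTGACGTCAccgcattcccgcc
Cltc: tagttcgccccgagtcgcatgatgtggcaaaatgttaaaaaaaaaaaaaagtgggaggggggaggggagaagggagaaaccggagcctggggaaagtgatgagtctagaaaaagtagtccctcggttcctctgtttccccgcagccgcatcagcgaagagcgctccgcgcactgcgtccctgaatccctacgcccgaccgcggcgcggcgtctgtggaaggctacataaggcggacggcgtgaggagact
Cav2: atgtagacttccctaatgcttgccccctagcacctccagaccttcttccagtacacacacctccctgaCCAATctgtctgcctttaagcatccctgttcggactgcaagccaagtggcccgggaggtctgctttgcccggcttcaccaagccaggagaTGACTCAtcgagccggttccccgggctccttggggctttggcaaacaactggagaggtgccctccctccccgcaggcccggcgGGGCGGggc
Cav1: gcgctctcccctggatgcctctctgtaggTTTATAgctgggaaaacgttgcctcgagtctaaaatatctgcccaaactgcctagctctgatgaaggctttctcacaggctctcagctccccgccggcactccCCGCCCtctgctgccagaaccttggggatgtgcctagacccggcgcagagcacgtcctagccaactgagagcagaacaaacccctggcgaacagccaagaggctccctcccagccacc

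The Cltb window held 2 GC boxes and 1 CRE, none overlapping. The Cltc window held none of the 6 motifs. The Cav2 window held 1 GC box, 1 CCAAT box and 1 AP-1 site, and the Cav1 window 1 GC box and 1 TATA box match. Among 32851 RefSeq windows of the same length, 32.7% held a GC box, 33.8% a CCAAT box, 12.4% a TATA box, 6.02% an E-box, 1.55% a CRE and 6.75% an AP-1 site. RefSeq windows were found for 9 of the 10 genes. Of these 9, 8 held a GC box, 4 a CCAAT box, and 1 each a TATA box, an E-box, a CRE and an AP-1 site. The shares over all windows count every distinct start of every gene, whereas each member gave only its most upstream window, so the counts are not matched. The Cltc and Cltb windows held 22 and 21 CpG dinucleotides, and the Cav1 and Cav2 windows 10 each, beside a median of 6 over all windows. A match is only a match of letters and says nothing of a factor bound there.

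The deposited values name no unit and were taken as FPKM, fragments scaled by gene length and library total. Comparisons of levels between genes rest on that reading. The files hold no counts, so sequencing depth is unknown and counting intervals cannot be set. Between 10596 and 10622 genes reached 1 FPKM in the nanoparticle libraries and between 10618 and 10631 in the PBS libraries. Genes above 0 numbered 18319 to 18509 in the nanoparticle libraries and 13544 to 13808 in the PBS libraries. The difference between groups was tested on log2(FPKM + 1) with limma over all tested genes, a gene being tested if 3 of the 6 libraries or more held 1 FPKM or above. A gene was called at a Benjamini-Hochberg adjusted p under 0.05. On this scale a fold change understates the change of low genes. Of all tested genes 86.4% were called, 40.5% as higher and 46.0% as lower, so a call alone sets no gene apart here. The label was checked with markers. Of 8 mammary carcinoma epithelial markers, Krt8, Krt18, Krt7 and Cdh1 were expressed and rose, Cldn4 did not pass, and Epcam, Krt14 and Cldn7 were under 1 FPKM in every library.

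Of the 10 uptake genes, 5 rose and 4 fell, and Cav1 was too low to be tested. Cltb (3.66-fold) and Cav2 (2.92-fold) were the members that rose most, and the nanoparticle means of Picalm and Cltc were 0.341 and 0.463 of the PBS means. Directions differed within the clathrin genes, where the light chains rose and the heavy chain fell, and within the flotillins, where Flot2 rose and Flot1 fell. Libraries of the groups did not overlap for any of the 10 genes, as for 87.2% of all tested genes. Changes of at least 2-fold on the log2 scale were found in 4 of the 9 tested members, and in 23.7% of all tested genes. The median log2 fold change was 0.22 over the 9 tested members and -0.06 over all tested genes. In bulk RNA, fewer cells of a type and less RNA per cell cannot be told apart.

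**Figure D1:**
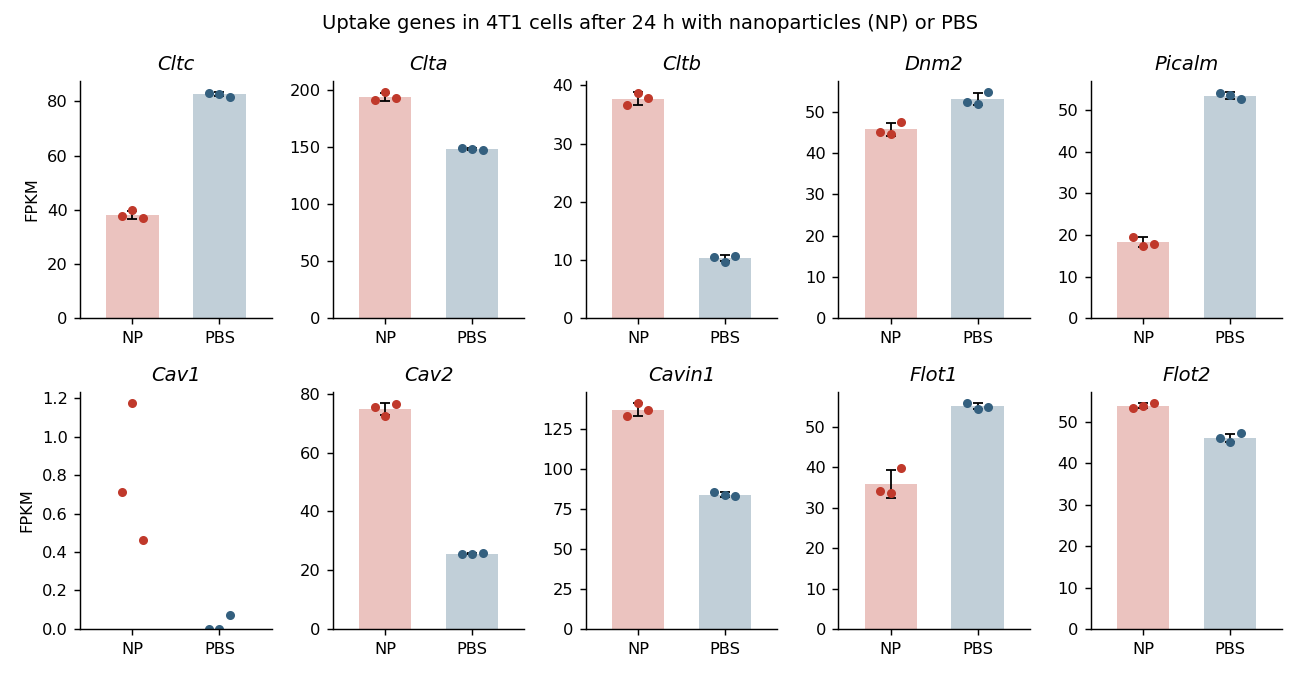
FPKM of the 10 uptake genes in each library, with nanoparticle libraries (NP, red) left of PBS libraries (blue). Points are libraries, bars are means and error bars are 1 SD (n = 3); Cav1 is shown by library alone because it is listed at 0 in 2 of the PBS libraries, and each panel has its own axis. The groups do not overlap in any panel.

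Cltc (ENSMUSG00000047126, GRCm38 chromosome 11, 86694351 to 86757565) encodes the clathrin heavy chain, the leg of the lattice. It had 37.6, 39.9 and 37.1 FPKM in the nanoparticle libraries, against 83.2, 82.8 and 81.7 FPKM in the PBS libraries. Every nanoparticle library was below every PBS library. The log2 fold change was -1.09 (standard error 0.033, adjusted p = 1.49e-09, limma).

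The light chains bind the heavy chain and regulate its assembly. Clta (ENSMUSG00000028478, chromosome 4, 44004452 to 44032846) was the most abundant of the 10 genes in both groups. It had 191, 198 and 193 FPKM in the nanoparticle libraries, against 149, 149 and 147 FPKM in the PBS libraries, and its log2 fold change was 0.38 (standard error 0.025, adjusted p = 2.48e-07, limma). The groups stood apart by more than the spread within either, though the change was modest. Cltb (ENSMUSG00000047547, chromosome 13, 54592401 to 54611344), whose upstream window carried the CRE match, had 36.5, 38.8 and 37.8 FPKM in the nanoparticle libraries, against 10.5, 9.72 and 10.7 FPKM in the PBS libraries. Its log2 fold change of 1.78 was the largest rise among the members (standard error 0.045, adjusted p = 4.44e-10, limma). All nanoparticle libraries were at least 3.43 times the highest PBS library.

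These changes altered the proportions of coat transcripts. The sum of both light chains averaged 232 ± 4.64 FPKM in nanoparticle libraries and 159 ± 0.920 FPKM in PBS libraries (SD, n = 3 each), and its ratio to Cltc was 6.05, 5.93 and 6.21 in the nanoparticle libraries, against 1.92, 1.91 and 1.93 in the PBS libraries. The ratio of Clta to Cltb was 5.23, 5.11 and 5.10 in nanoparticle libraries, against 14.2, 15.3 and 13.8 in PBS libraries. Cltb thus made up 16.3 ± 0.195% of light-chain FPKM with nanoparticles and 6.49 ± 0.321% with PBS (SD, n = 3 each). Neither ratio overlapped between groups. In an exact two-sided permutation test over libraries each ratio gave p = 0.1, which is the smallest value that 3 against 3 libraries allow, and 0.1 after Benjamini-Hochberg adjustment over the 3 ratios tested. These are ratios of transcripts and not of proteins.

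**Figure D2:**
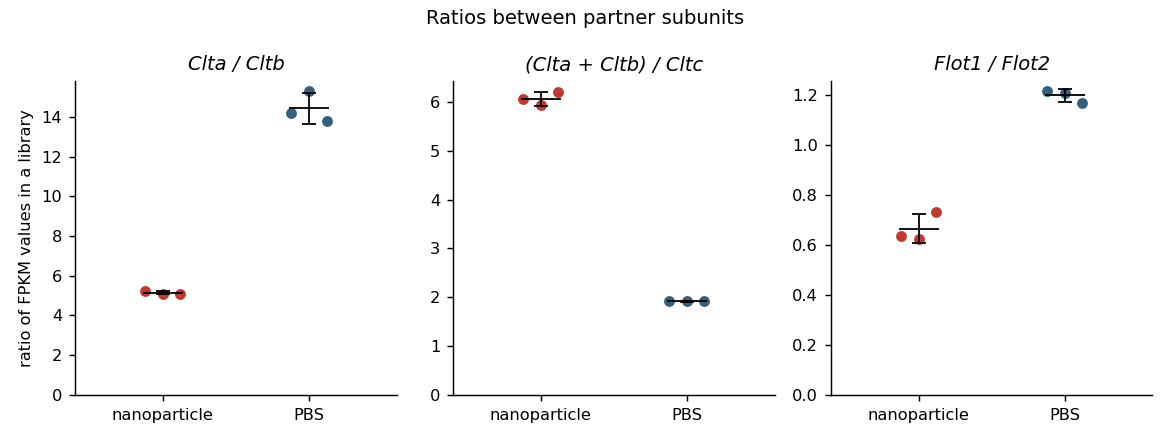
Ratios of FPKM values between partner subunits in each library, nanoparticle (red) left of PBS (blue). Points are libraries, the horizontal mark is the mean and the bar is 1 SD (n = 3). The ratio of summed light chains to Cltc lies near 6 with nanoparticles and near 2 with PBS, while the ratios of Clta to Cltb and of Flot1 to Flot2 are lower with nanoparticles.

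Picalm (ENSMUSG00000039361, chromosome 7, 90130213 to 90213465) encodes CALM, an adaptor that binds membrane phosphoinositide, clathrin and the SNARE proteins it loads as cargo. It had 19.6, 17.5 and 17.7 FPKM in the nanoparticle libraries, against 54.2, 53.7 and 52.6 FPKM in the PBS libraries. The log2 fold change of -1.50 was the largest fall among the members (standard error 0.045, adjusted p = 1.25e-09, limma). The lowest PBS library was 2.68 times the highest nanoparticle library.

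Dnm2 (ENSMUSG00000033335, chromosome 9, 21424908 to 21507759) encodes the widely expressed dynamin, the GTPase that cuts clathrin buds and also acts at caveolae. It had 45.1, 44.7 and 47.6 FPKM in the nanoparticle libraries, against 52.5, 52.0 and 54.8 FPKM in the PBS libraries. The groups did not overlap, but the lowest PBS library was only 1.09 times the highest nanoparticle library. The log2 fold change was -0.21 (standard error 0.035, adjusted p = 0.000334, limma), and it turned to 0.35 (adjusted p = 4.94e-06, limma) after the dependence of fold change on genomic span and exonic length was subtracted (the span and length trend). Dnm2 overlaps Tmed1 on the opposite strand, which averaged 37.5 FPKM with nanoparticles and 21.1 FPKM with PBS. No source used here gives the strand setting of the counting, so reads of the 2 genes may be shared. Of the other dynamins, named here after their values were seen, Dnm1 fell to 3.60, 3.36 and 3.13 FPKM in nanoparticle libraries, against 10.8, 10.9 and 10.6 FPKM in PBS libraries, and Dnm3 was under 1 FPKM in every library.

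Of the caveola genes, Cav2 and Cavin1 were abundant and rose, whereas Cav1 stayed near the floor. Cav2 (ENSMUSG00000000058, chromosome 6, 17281185 to 17289115) encodes caveolin-2, which joins caveolin-1 in mixed oligomers and is known to need it to leave the Golgi. It had 75.4, 72.4 and 76.5 FPKM in the nanoparticle libraries, against 25.5, 25.6 and 25.7 FPKM in the PBS libraries. The PBS libraries were nearly equal, and every nanoparticle library was at least 2.81 times the highest of them (log2 fold change 1.51 with a standard error of 0.031, limma adjusted p = 1.48e-10).

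Cav1 (ENSMUSG00000007655, chromosome 6, 17306335 to 17341452), the main structural caveolin, starts 17.2 kb beyond the end of Cav2 on the same strand. It had 0.712, 1.18 and 0.462 FPKM in the nanoparticle libraries, and was listed at 0, 0 and 0.0722 FPKM in the PBS libraries. The groups did not overlap, but only 1 library reached 1 FPKM, so Cav1 was not tested. With no filter on low values its log2 difference of 0.78 was called (adjusted p = 0.00159, limma). In that setting 8445 of 20124 genes rose and 5227 fell, so the call does not set Cav1 apart. The ratio of Cav1 to Cav2 was 0.00945, 0.0162 and 0.00604 in the nanoparticle libraries, against 0, 0 and 0.00280 in the PBS libraries. Of the 9532 genes under 0.1 FPKM in every PBS library, 45.5% were above 0 in every nanoparticle library. Conversely, of the 5722 genes under 0.1 FPKM in every nanoparticle library, 4% were above 0 in every PBS library. Cav1 belongs to the 9532 genes, whose nanoparticle means had a median of 0.0415 FPKM, and 35 of them, Cav1 included, were at least as high as Cav1. An antisense gene, Gm15581, overlaps both caveolin genes in the annotation and was not analysed here.

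Cavin1 (ENSMUSG00000004044, chromosome 11, 100956733 to 100970887) encodes the coat protein without which caveolae do not form. It had 133, 141 and 137 FPKM in the nanoparticle libraries, against 85.4, 83.5 and 82.8 FPKM in the PBS libraries (log2 fold change 0.70 with a standard error of 0.029, limma adjusted p = 1.11e-08). Every nanoparticle library was at least 1.56 times the highest PBS library. Caveola genes are strongly expressed in fibroblasts, endothelium and fat, so markers of these cells were summed. The 8 fibroblast markers summed to 7.83 to 9.75 FPKM in nanoparticle libraries and 32.9 to 33.1 FPKM in PBS libraries. Of these, 6 were under 1 FPKM in every library, and the sum rested on Pdgfra and Pdgfrb, which both fell. Among the low ones, Col1a1, Col1a2, Dcn, Lum and Thy1 were higher in every nanoparticle library than in any PBS library, and Fap overlapped. The 8 endothelial markers summed to 4.85 to 5.09 FPKM in nanoparticle libraries and 13.6 to 14.6 FPKM in PBS libraries. Of these, 6 were under 1 FPKM throughout, and both others, Cdh5 and Plvap, were lower with nanoparticles. Among the low ones, Pecam1, Kdr, Tek, Emcn and Vwf were higher in every nanoparticle library than in any PBS library, and Cldn5 overlapped. The 4 adipocyte markers summed to 0.595 to 0.821 FPKM in nanoparticle libraries and were all listed at 0 in PBS libraries. The 12 macrophage and myeloid markers summed to 44.4 to 50.5 FPKM in nanoparticle libraries and 23.2 to 27.1 FPKM in PBS libraries, with 8 under 1 FPKM in every library, while Cd68, Csf1r and Mpeg1 rose and Cd14 fell. Cd68 alone had 36.0, 33.5 and 36.3 FPKM in nanoparticle libraries, against 11.8, 10.6 and 14.1 FPKM in PBS libraries. No PBS library reached 1 FPKM for Csf1r or Mpeg1, which could then pass the filter only by being higher with nanoparticles. All 7 lymphocyte markers were under 1 FPKM, and their sums were 0.781 to 0.918 FPKM in nanoparticle libraries and 0.104 to 0.229 FPKM in PBS libraries, with Nkg7 at 0 in every library. The part of RNA of any of these cell types in the uptake gene values was not tested.

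The flotillins, which form mixed oligomers, moved apart. Flot1 (ENSMUSG00000059714, chromosome 17, 35823230 to 35832791) had 34.1, 33.6 and 40.0 FPKM in the nanoparticle libraries, against 56.0, 54.6 and 55.1 FPKM in the PBS libraries. Nanoparticle library 3 was higher than its fellows but below every PBS library (log2 fold change -0.61 with a standard error of 0.060, limma adjusted p = 9.23e-06). Flot2 (ENSMUSG00000061981, chromosome 11, 78037931 to 78060434) had 53.5, 53.8 and 54.6 FPKM in the nanoparticle libraries, against 46.0, 45.2 and 47.2 FPKM in the PBS libraries. Its rise was small, with a log2 fold change of 0.22 (standard error 0.029, adjusted p = 5.61e-05, limma), and it did not pass once the span and length trend was removed (0.02, adjusted p = 0.577, limma). The ratio of Flot1 to Flot2 was 0.637, 0.625 and 0.732 in the nanoparticle libraries, against 1.22, 1.21 and 1.17 in the PBS libraries. The ratios did not overlap (exact two-sided permutation p = 0.1, adjusted 0.1, the smallest possible).

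The order of levels per gene length differed between groups. With nanoparticles it ran Clta, Cavin1, Cav2, Flot2, Dnm2, Cltc, Cltb, Flot1, Picalm and Cav1 from highest to lowest. The ranges of Cltc and Cltb overlapped there, as did those of Cltb and Flot1. With PBS the order was Clta, Cavin1, Cltc, Flot1, Picalm, Dnm2, Flot2, Cav2, Cltb and Cav1, and the ranges of Cavin1 and Cltc and those of Picalm and Dnm2 overlapped. Cltc ranked 6 with nanoparticles and 3 with PBS, and Cav2 ranked 3 with nanoparticles and 8 with PBS. Among all tested genes, the Cltb mean stood at percentile 80.0 with nanoparticles and 42.2 with PBS, while Clta stood at percentile 96.9 in both groups.

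The results of the members were set against scaling, since the summed FPKM was 468387 to 472870 in nanoparticle libraries and 421544 to 425231 in PBS libraries. Rescaling to equal sums (the TPM scale) shifted the log2 fold changes of the tested genes by a median of -0.15. Median-of-ratios scaling shifted them by a median of 0.06. All 9 tested members kept direction and call under both, with Flot2 closest to losing it at a log2 fold change of 0.07 on the TPM scale (adjusted p = 0.048, limma). Cltc was -1.26 and Picalm -1.68 on the TPM scale, and Cltb was 1.68 and Cav2 1.38.

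**Figure D3:**
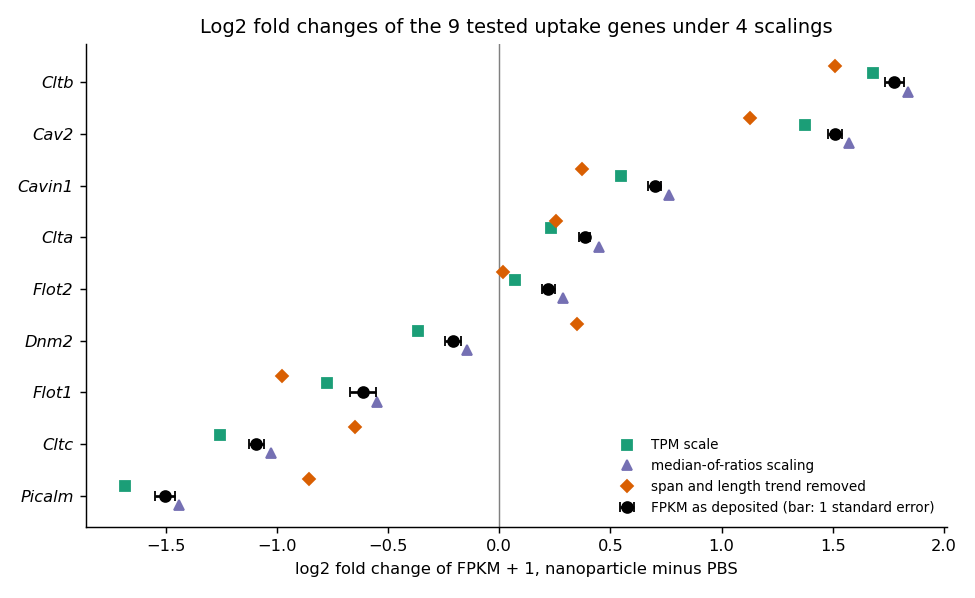
Log2 fold changes of the 9 tested uptake genes, nanoparticle minus PBS, on FPKM as deposited (black, bars of 1 standard error), on the TPM scale, after median-of-ratios scaling, and after removal of the span and length trend. Dnm2 is -0.21 as deposited and 0.35 with the trend removed, Flot2 is close to 0 there, and the other 7 genes keep their side of 0.

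The genomic span of a gene moved with its change over the whole table. The median log2 fold change was 0.34 over 2658 genes with a span under 10 kb, 0.23 over 2237 genes from 10 to 20 kb, -0.05 over 3137 genes from 20 to 50 kb, -0.54 over 1602 genes from 50 to 100 kb and -1.10 over 1202 genes of 100 kb or more. Picalm (83.3 kb), Dnm2 (82.9 kb) and Cltc (63.2 kb), the members with the widest span, all fell. In the range from 50 to 100 kb, 73.4% of tested genes fell. With the trend removed, Picalm was -0.86 (adjusted p = 3.05e-08, limma) and Cltc was -0.65 (adjusted p = 2.93e-08, limma). Cltb (18.9 kb) and Cav2 (7.93 kb) were 1.51 and 1.13 with it removed, and Cavin1 (14.2 kb) and Clta (28.4 kb) were 0.37 and 0.25. Flot1, at 9.56 kb, fell although 60.2% of genes under 10 kb rose, and it was -0.98 with the trend removed. The cause of the trend was not tested.

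**Figure D4:**
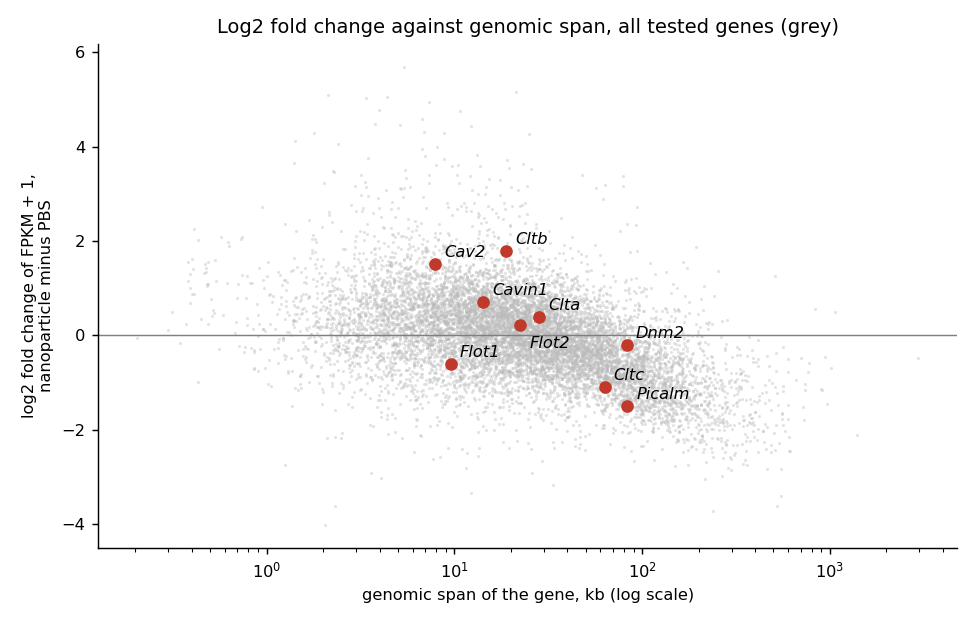
Log2 fold change, nanoparticle minus PBS, against genomic span in kb (log axis) for all tested genes with an annotated span (grey) and the 9 tested uptake genes (red). Picalm, Dnm2 and Cltc lie at 63.2 to 83.3 kb and below 0, and Flot1 lies below 0 at a short span.

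Genes that work around these coats were read from lists in the same fit, in which 40.5% of all tested genes rose and 46.0% fell. Falls made up 66.7% of the tested clathrin adaptors and accessory factors, 71.4% of the caveola accessory genes, 73.8% of the macropinocytosis genes, 50% of the clathrin-independent carrier genes and 76.9% of the cargo receptors. Of 42 clathrin adaptors and accessory factors, 36 were tested, 8 rose, 24 fell and 4 did not pass, with a median log2 fold change of -0.48. With the span and length trend removed 11 rose and 21 fell, with a median of -0.16. Over all 10863 tested genes 4079 rose and 5042 fell with it removed, with a median of -0.08. The falls include Inpp5d, which was under 1 FPKM in every nanoparticle library, so the filter fixed its direction. Epn2, an epsin that bends membrane, averaged 20.6 ± 1.36 FPKM with nanoparticles and 79.5 ± 1.99 FPKM with PBS (SD, n = 3 each). Snx9, a membrane-curving partner of dynamin, averaged 28.3 ± 1.63 FPKM with nanoparticles and 96.4 ± 0.726 FPKM with PBS. Eps15, a scaffold of early clathrin pits, averaged 8.51 ± 0.575 FPKM with nanoparticles and 24.9 ± 0.970 FPKM with PBS. The largest rise was that of Necap1, an AP-2 binding protein, at 24.0 ± 0.543 FPKM with nanoparticles and 11.3 ± 0.553 FPKM with PBS. The spans of Epn2, Snx9 and Eps15 were 62.4, 90.6 and 108 kb, and that of Necap1 was 14.5 kb. With the span and length trend removed, Snx9 had a log2 fold change of -1.13 in place of -1.73, and Eps15 one of -0.72 in place of -1.45. Epn2 had -1.51 in place of -1.90, and Necap1 0.70 in place of 1.02. The 5 subunits of AP-2, the main clathrin adaptor at the cell surface, were looked at after their values were seen and were divided, with Ap2a1 (log2 fold change 0.71) and Ap2m1 (0.53) higher, Ap2b1 (-0.83) and Ap2a2 (-0.43) lower, and Ap2s1 (0.05) not passing. With the span and length trend removed, Ap2a1 (0.62) and Ap2m1 (0.16) were higher, Ap2s1 (-0.37) and Ap2b1 (-0.09) were lower, and Ap2a2 (0.04) did not pass.

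Of 13 caveola accessory genes, 7 were tested, 1 rose, 5 fell and 1 did not pass, with a median log2 fold change of -0.55, or -0.26 with the span and length trend removed. Under median-of-ratios scaling 2 rose and 5 fell, beside 4699 and 4690 of all 10866 tested genes. Pacsin3, a membrane-sculpting F-BAR protein, averaged 9.01 ± 0.0998 FPKM with nanoparticles and 26.4 ± 0.988 FPKM with PBS. Cavin3, a partner of Cavin1 in the caveolar coat, fell to 28.0 ± 1.06 FPKM with nanoparticles, against 60.5 ± 0.470 FPKM with PBS, opposite to Cavin1 (log2 fold change -1.09 with a standard error of 0.034, limma adjusted p = 1.73e-09). Pacsin3 and Cavin3 are short genes, of 8.73 and 2.22 kb. With the span and length trend removed, Pacsin3 had a log2 fold change of -1.83 in place of -1.45, and Cavin3 one of -1.53 in place of -1.09. Pacsin2, of 89.0 kb, fell by 0.77 on the log2 scale, or by 0.18 without the span and length trend. Ehd2, an ATPase at the caveolar neck, averaged 59.5 ± 1.19 FPKM with nanoparticles and 48.6 ± 1.04 FPKM with PBS, and it did not pass with the span and length trend removed (limma adjusted p = 0.155). Cavin2, Cavin4 and Cav3 were under 1 FPKM in every library.

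Of 45 genes of macropinocytosis and actin ruffling, in which sheets of actin-driven membrane fold back and trap fluid, 42 were tested, 8 rose, 31 fell and 3 did not pass, with a median log2 fold change of -0.36. Without the span and length trend 8 rose and 25 fell, with a median of -0.31, beside -0.08 over all tested genes. Dock1, an activator of the GTPase Rac1, averaged 1.66 ± 0.0515 FPKM with nanoparticles and 10.1 ± 0.118 FPKM with PBS, and spans 503 kb. Abi1, a WAVE complex subunit, averaged 16.5 ± 1.02 FPKM with nanoparticles and 44.7 ± 0.365 FPKM with PBS. The log2 fold changes of Dock1 and Abi1 were -2.07 and -1.39, or -0.57 and -0.74 without the span and length trend. Pip5k1a, a kinase that makes the phosphoinositide PIP2, rose most, averaging 63.7 ± 1.57 FPKM with nanoparticles and 30.1 ± 1.14 FPKM with PBS. Chosen after their values were seen, the 7 tested genes of the actin-activating WAVE complex all fell, with log2 fold changes from -1.39 to -0.13. Of these genes 6 span 50 kb or more, a size at which most tested genes fell (73.4% from 50 to 100 kb). Without the span and length trend, 4 of the 7 were lower and 3 did not pass. Of the 8 listed Arp2/3 genes, which nucleate actin branches, 3 rose and 5 fell, or 2 and 5 without that trend.

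Of 12 genes of clathrin-independent carriers and endophilins, 10 were tested, 5 rose and 5 fell. Sh3gl1, an endophilin of fast clathrin-independent uptake, averaged 65.1 ± 1.73 FPKM with nanoparticles and 34.2 ± 0.229 FPKM with PBS. Its paralog Sh3gl3 had 3.09, 2.30 and 2.71 FPKM with nanoparticles and 0.356, 0.627 and 0.389 FPKM with PBS. Since every PBS library of Sh3gl3 was under 1 FPKM, the filter fixed its direction. Slc3a2, the CD98 heavy chain and a cargo of these carriers, averaged 94.8 ± 1.77 FPKM with nanoparticles and 221 ± 5.05 FPKM with PBS. Arhgap26, which encodes GRAF1, a RhoGAP of tubular carriers, averaged 2.20 ± 0.532 FPKM with nanoparticles and 9.65 ± 0.328 FPKM with PBS, and Arhgap10 averaged 4.41 ± 0.238 FPKM with nanoparticles and 14.9 ± 0.682 FPKM with PBS. These genes span 383 and 268 kb, and their log2 fold changes were -1.75 and -1.55, or -0.37 and -0.39 without the span and length trend. Sh3gl3, of 134 kb, had a log2 fold change of 1.34, or 2.15 without it.

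Of 21 cargo and scavenger receptors, 13 were tested, 2 rose, 10 fell and 1 did not pass, with a median log2 fold change of -0.70. The falls include Sorl1, under 1 FPKM in every nanoparticle library, whose direction the filter fixed. Igf2r, which carries lysosomal enzymes and IGF2 through clathrin coats, had 22.4, 23.4 and 23.1 FPKM with nanoparticles, against 130, 132 and 130 FPKM with PBS (log2 fold change -2.46 with a standard error of 0.029, limma adjusted p = 7.2e-12). Lrp1, a large lipoprotein receptor, averaged 10.5 ± 0.270 FPKM with nanoparticles and 34.2 ± 0.321 FPKM with PBS. Tfrc, the transferrin receptor and classic clathrin cargo, rose to 99.7 ± 1.21 FPKM with nanoparticles, against 53.6 ± 1.04 FPKM with PBS. The spans of Igf2r and Lrp1 were 87.3 and 83.0 kb and that of Tfrc was 23.9 kb. Lrp1 was -1.61 on the log2 scale, or -0.97 with the span and length trend removed. Igf2r was -1.82 and Tfrc 0.72 with it removed. Of the tested receptors 3 rose and 8 fell with it removed, with a median of -0.77.

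**Figure D5:**
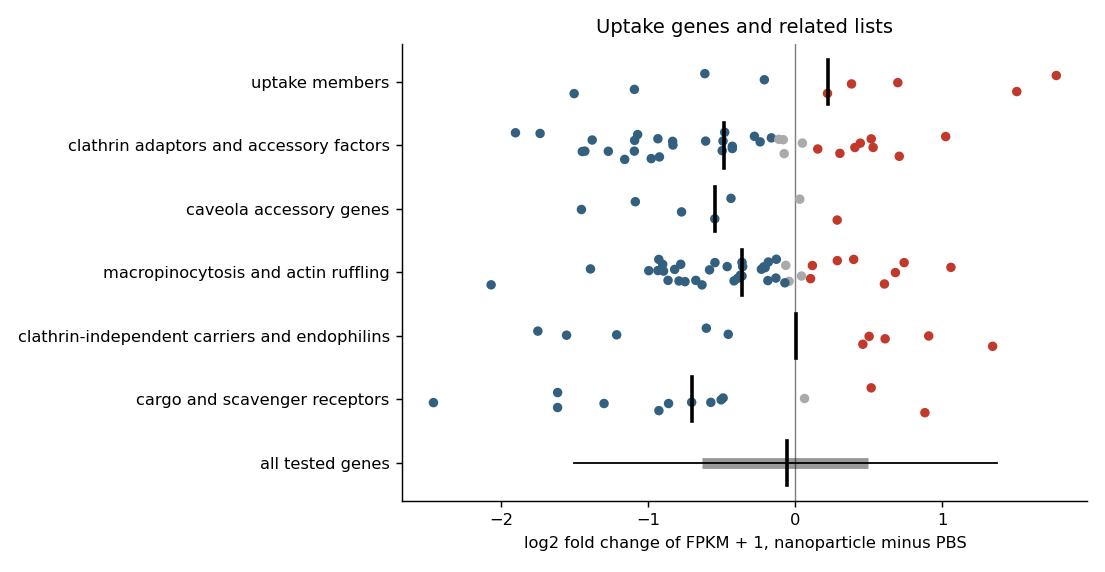
Log2 fold changes, nanoparticle minus PBS, of the 9 tested uptake genes and of the tested genes of 5 related lists; red points rose, blue points fell and grey points did not pass, and black marks are medians. The bottom row gives all tested genes as the 5th to 95th percentile (line) and the quartiles (thick line), with a median of -0.06. The uptake genes lie on both sides of 0, and the medians of 4 of the lists lie below -0.3.

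The genes with profiles most like those of 3 members were ranked by the Euclidean distance between log2(FPKM + 1) profiles over the 6 libraries, each centred on its own mean. For Cltc they were Stat5b (distance 0.0339), Rimoc1 (0.0375) and Cars1 (0.0425). For Flot1 they were Iqsec2 (0.0608), Lrrc8d (0.0658) and Vgll4 (0.0807). For Cav1 the closest tested genes were Nkiras1 (0.218), Rusc1 (0.248) and Plac1 (0.253). With only 2 groups, any gene whose groups differ by a similar amount gives a small distance.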

How the data were processed

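One deposited table held a value per feature and library for 3 nanoparticle and 3 PBS libraries of 4T1 cells. Its header names no unit. The authors' values were taken as FPKM from their properties: they are not whole numbers, their sums differ between libraries, and their products with exonic length sum to nearly the same total in every library. The builds GRCm38 and mm10 and the tools STAR and featureCounts are named in the submitters' processing notes. No source used here gives versions, annotation or strand setting. In the search for steps of 1 read, at most 1.77% of ratios of low values fell in any 1% bin, so no counts were recovered.

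Of 22806 features, 701 without a gene identifier stayed out of the tests (0.631% to 0.67% of summed FPKM). Genes with at least 1 FPKM in 3 libraries were tested on log2(FPKM + 1) with limma 3.58.1 in R 4.3.3 (lmFit; eBayes with trend and robust; statmod 1.5.0), two-sided, Benjamini-Hochberg over 10863 genes, with no replicate block. The fit was also run on simulated data in which few genes changed. In the real data 86.4% of tested genes were called, so that run cannot test so wide a change. Ratios were tested by exact permutation with Python 3.11.15. Spans and positions are from GENCODE M21 (99.8% of tested genes matched), and upstream sequences from RefSeq. To remove the trend with span and exonic length, a spline fit of the fold changes was subtracted from the nanoparticle values. The fit was first centred on its own mean, so the mean difference between groups was kept. The median log2 fold change over all tested genes was -0.08 with the trend removed. Calls of small changes in that setting, such as those of Flot2, Ap2a2 and Ap2b1, may depend on this centring, which was not varied.

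The members, lists and tests were chosen with earlier results of these data known, and the motifs after the values were seen. Named were all members, the 3 smallest adjusted p-values of each list and its largest called change in each direction, and the 3 genes most like Cltc, Cav1 and Flot1, clone names left out. Older symbols of cavins were dropped from the caveola list.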

Additional observations from a re-analysis of the deposited data

How the results depend on the processing

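The 9 tested members were recomputed under 15 alternatives, and 129 of the 135 values kept direction and call. Without any 1 library, 5 members still rose and 4 fell, with log2 fold changes from 1.74 to 1.80 for Cltb, 1.49 to 1.53 for Cav2, -1.12 to -1.07 for Cltc and -1.55 to -1.47 for Picalm. Dnm2 reversed to 0.35 with the span and length trend removed, and Flot2 did not pass there. Against a 1.5-fold change, 3 members rose and 2 fell; Clta, Flot2, Dnm2 and Flot1 did not pass. Under that test 1853 of all tested genes rose and 2341 fell, and the lists had 2 rises and 14 falls (clathrin adaptors), 0 and 3 (caveola), 3 and 13 (macropinocytosis), 2 and 3 (clathrin-independent carriers), and 1 and 7 (cargo receptors). With no filter on low values 8445 of 20124 genes rose and 5227 fell, and rises and falls numbered 13 and 25 of 42 clathrin adaptors, 2 and 6 of 13 caveola genes and 7 and 11 of 21 cargo receptors. With a mean of at least 5 FPKM, 6 of the 9 tested cargo receptors fell, beside 3781 of all 8444 tested genes. With median-of-ratios scaling 2 of the 7 tested caveola genes rose, beside 4699 of all 10866 tested genes. For these counts, thresholds and filters change which genes can be called; the cause of the other differences was not tested.

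No effect shared by same-numbered libraries was seen: their deviations correlated at -0.0141, -0.0428 and 0.0411, and not every library correlated best with its own number. Such weak correlations cannot show whether same-numbered libraries were handled together. With the replicate block 4389 genes rose and 4982 fell, and members kept their calls. The ratios with same-numbered pairs had exact sign-flip p = 0.25, the smallest 3 pairs allow. Depth is unknown, which limits what can be said of Cav1 and other genes near 0.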
